A study of Mus musculus with 9 samples.

Results

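The subject is a set of 8 membrane carriers of water-soluble vitamins, taken by gene symbol: the riboflavin carriers Slc52a3 and Slc52a2, the thiamine carriers Slc19a3 and Slc19a2, the folate carriers Slc19a1 and Slc46a1, the biotin and pantothenate carrier Slc5a6, and the ascorbate carrier Slc23a2. All 8 symbols were found among 32531 gene rows, and all 8 passed the filter on low counts in every comparison. All RNA was cortical: the mice were adult untreated controls, every one carrying the Abcb1a-EGFP/Rpl10a transgene of line ES3026 (Abcb1a-TRAP). In translating ribosome affinity purification (TRAP), a ribosomal protein fused to a fluorescent protein is expressed in chosen cells, and antibodies pull down the tagged ribosomes with their mRNA. Here the tag is driven from Abcb1a, which encodes an efflux pump found in brain endothelial cells. There were 9 libraries in 3 groups of 3: ribosome-bound RNA from immunoprecipitation (IP) by investigator ES, the same fraction by investigator JL, and input RNA by JL, which is total RNA of the same tissue. There was no input from ES among them. The labels describe no treatment and no other genotype, give no age beyond adult, and leave it unstated whether replicate libraries are separate animals, so every p-value reflects only library-to-library spread, which may be technical.

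Brain cells depend on vitamins that arrive with the blood. Riboflavin, thiamine, biotin and pantothenate become cofactors of energy metabolism, and folate carries carbon units for nucleotide synthesis. These polar molecules cross membranes through solute carriers, at the endothelium of the blood-brain barrier or, as is well known for folate and ascorbate, at the choroid plexus, the epithelium that makes cerebrospinal fluid.

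Gene counts per library ran from 31987470 to 46598478. Levels are given as CPM, counts scaled to a common library total, after TMM normalisation over the 9 libraries. The summed level of 15 endothelial marker genes was 7778 to 8232 CPM in the JL IPs, 856 to 1253 in the ES IPs and 32.1 to 43.0 in the inputs. The summed level of 10 neuron markers was 1865 to 2399 CPM in the JL IPs, 15272 to 16329 in the ES IPs and 14671 to 15402 in the inputs, and that of 9 astrocyte markers 331 to 505, 1329 to 1917 and 2141 to 2307 CPM. The 7 choroid plexus markers summed to 48.1 to 65.3 CPM in the JL IPs, 5.47 to 8.33 in the ES IPs and 647 to 743 in the inputs. In the same order, 6 fibroblast markers summed to 54.7 to 85.9, 27.1 to 31.2 and 48.1 to 51.1 CPM. Smooth muscle markers summed to 15.8 to 30.8, 9.05 to 13.4 and 11.4 to 13.0, and pericyte markers to 7.30 to 13.6, 20.2 to 25.9 and 35.3 to 40.0. Mean sums of oligodendrocyte, oligodendrocyte precursor, microglia and blood markers were lower in JL IPs than inputs. The inputs are labelled endothelial cells too, but Cldn5, a tight junction gene of endothelium, was at 533 ± 46.0 CPM in the JL IPs, 82.3 ± 37.8 in the ES IPs and only 0.730 ± 0.346 in the inputs. Snap25, a synaptic gene of neurons, was at 1349 ± 167, 11881 ± 767 and 10289 ± 462 CPM. No gene of the 11 marker lists that was found in the files was at 0 counts in a whole group. Abcb1a stood at 458 ± 20.8 CPM in the JL IPs, 46.5 ± 8.49 in the ES IPs and 2.11 ± 0.478 in the inputs (mean ± SD, n = 3 each). Rpl10a, the gene of the tagged protein, stood at 9.67 ± 0.852, 4.53 ± 2.30 and 7.45 ± 0.342 CPM. Alignments that were not unique are left out of the counts, and how many belonged to Rpl10a is unknown. In such bulk RNA, fewer cells of a type and less RNA per cell cannot be told apart.

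JL IP was first set against JL input, which asks what the purification enriched over cortex RNA. Slc52a3, Slc52a2, Slc19a3 and Slc5a6 were higher in the JL IPs, and Slc19a2, Slc19a1, Slc46a1 and Slc23a2 were lower. The set therefore split into 4 higher and 4 lower, where 36.7% of 17357 tested genes were called higher and 37.4% lower, 74.1% in all (edgeR's quasi-likelihood test, adjusted p under 0.05). The split over all genes, 6372 higher and 6487 lower, became 5425 and 7555 with upper quartile factors and 5392 and 7566 with library size alone. The JL IP and input libraries did not overlap for 8 of 8 carriers, against 80.8% of all genes tested (38.7% higher and 42.1% lower), so the number called says little about the set, while the sizes of the changes ranged widely. Log2 fold changes ran from -2.45 to 9.02 with a median of 0.49, beside a median of -0.09 over all genes tested.

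**Figure D1:**
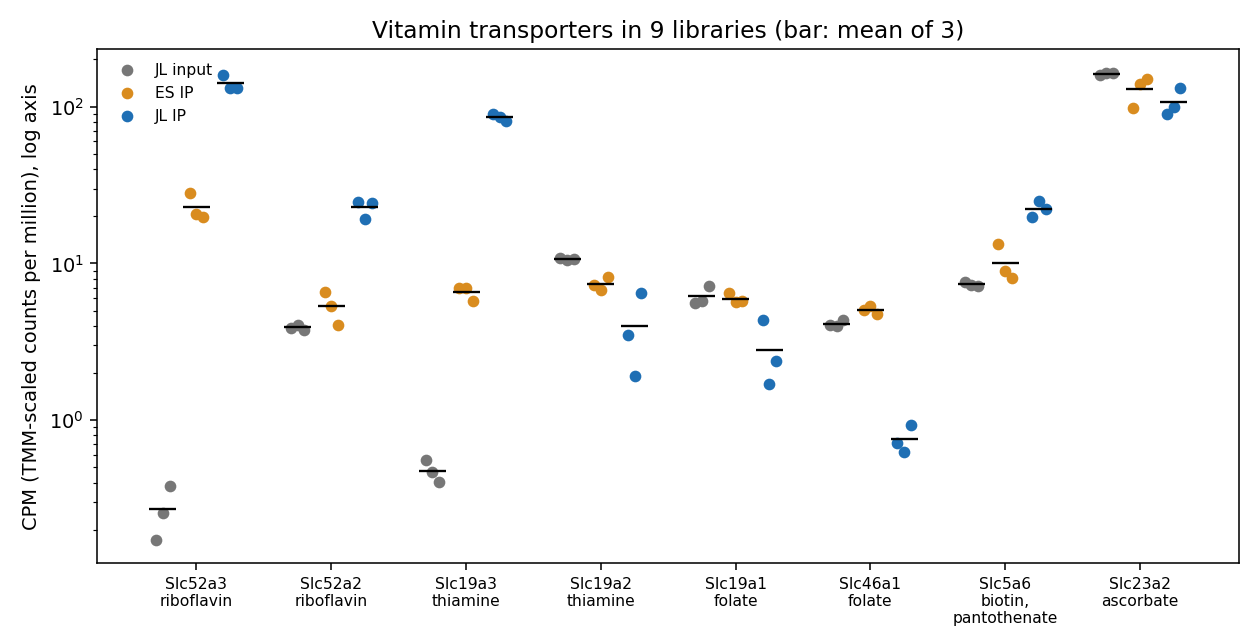
Level of each carrier in each library, in CPM on a log axis, grouped by gene with the vitamin under its symbol; each point is 1 library and the bar is the mean of 3. Slc52a3 and Slc19a3 ranged from 0.558 CPM or less in every input library to 81.3 CPM or more in every JL IP library, while Slc23a2 stayed between 89.0 and 164 CPM in all 9.

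Both riboflavin carriers were higher in the JL IPs than in the inputs, Slc52a3 by far more than Slc52a2. Slc52a3, a plasma membrane riboflavin transporter (chromosome 2, 151996511 to 152009258 in mm10, plus strand), stood at 158, 132 and 131 CPM in the JL IPs, at 28.1, 20.7 and 19.7 CPM in the ES IPs, and at 0.173, 0.255 and 0.383 CPM in the inputs. The 3 groups were far apart, and the input values rested on 9, 13 and 18 reads. The log2 fold change of JL IP over input was 9.02 ± 0.20 (SE; adjusted p = 3.22e-09, edgeR), which ranked 13 among 17357 genes. The carrier was lower in ES than in JL IPs (log2 fold change -2.62 ± 0.20, adjusted p = 1.67e-06), and it was still higher in ES IPs than in JL inputs (6.32 ± 0.30, adjusted p = 5.03e-06). Its paralog Slc52a2 (chromosome 15, 76538832 to 76544608, plus strand) carries riboflavin too. Slc52a2 stood at 24.5, 19.3 and 24.4 CPM in the JL IPs, at 6.59, 5.35 and 4.06 CPM in the ES IPs, and at 3.85, 4.07 and 3.79 CPM in the inputs. ES and input libraries overlapped, and the JL IPs lay above both. Slc52a2 was higher in JL IPs than inputs by a log2 fold change of 2.54 ± 0.16 (adjusted p = 1.01e-06) and lower in ES than in JL IPs (-2.09 ± 0.25, adjusted p = 3.05e-05). ES IP against JL input gave 0.37 ± 0.21 and was not called (adjusted p = 0.171). Without ES replicate 3 it was called higher (adjusted p = 0.0375), within a range of 0.0375 to 0.405 over its alternatives.

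The balance between these paralogs differed between fractions. Levels of different genes were compared per kb of exon, using the union of annotated exons in GENCODE M21. Per kb, Slc52a3 exceeded Slc52a2 by a ratio of 12.8, 13.6 and 10.7 in the JL IPs and 8.47, 7.69 and 9.67 in the ES IPs, while in the inputs the ratio was 0.0894, 0.124 and 0.201. The log2 ratio averaged 3.62 ± 0.18 in the JL IPs, 3.10 ± 0.17 in the ES IPs and -2.94 ± 0.59 in the inputs (SD, n = 3). No 2 groups overlapped, and each difference gave p = 0.1 in an exact two-sided permutation test, the smallest that 3 against 3 libraries allow (12 such tests, adjusted p = 0.1). The longest annotated transcript of Slc52a2 is 5.29 kb and its longest annotated coding sequence 1.35 kb. Whether the same transcript holds both was not checked. Per kb of coding sequence, a choice made after seeing the data, the log2 ratios became 2.60, 2.08 and -3.96, with the same differences between groups.

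Thiamine carriers went in opposite directions in JL IPs against inputs. Slc19a3, a high-affinity thiamine transporter (chromosome 1, 83012523 to 83038448, minus strand), stood at 90.2, 86.1 and 81.3 CPM in the JL IPs, at 6.98, 6.97 and 5.78 CPM in the ES IPs, and at 0.558, 0.470 and 0.404 CPM in the inputs. Each group was tight and clear of the others. The log2 fold change of JL IP over input was 7.47 ± 0.14 (adjusted p = 2e-09), rank 125 of 17357. ES IP against JL IP gave -3.70 ± 0.19 (adjusted p = 6.98e-07), rank 73 from the lowest among 16212 genes, and ES IP against JL input gave 3.69 ± 0.22 (adjusted p = 1.22e-05). Beside these, the 15 endothelial markers had median log2 fold changes of 7.84, -3.03 and 4.67 in the same 3 comparisons. Slc19a2, the other thiamine transporter of the family (chromosome 1, 164249046 to 164265385, plus strand), stood at 3.52, 1.91 and 6.50 CPM in the JL IPs, at 7.32, 6.78 and 8.21 CPM in the ES IPs, and at 10.9, 10.5 and 10.7 CPM in the inputs. The JL IPs were lowest but spread widely around their mean of 3.98 CPM. Slc19a2 was lower in JL IPs than inputs (-1.43 ± 0.38, adjusted p = 0.00824) and lower in ES IPs than inputs (-0.61 ± 0.14, adjusted p = 0.00667). The second call ended when all 9 libraries shared 1 fit (adjusted p = 0.161; range over its alternatives 0.000701 to 0.161). ES against JL IP was not called for Slc19a2 at 0.91 ± 0.40 (adjusted p = 0.0739), although the libraries did not overlap. This last result was called with DESeq2 (adjusted p = 0.0494), limma-voom (0.0235), a replicate block (0.0246) and without JL IP replicate 3 (0.0061), within a range of 0.0061 to 0.19. Without that library its log2 fold change was 1.47, and without JL IP replicate 2 it was 0.57.

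Sequence at the annotated starts of these thiamine carriers is shown because they belong to 1 family and moved in opposite directions in the IPs against the inputs. Each is 250 bases before to 50 after a RefSeq start on GRCm38.p6, 5′ to 3′ on the gene's strand; Slc19a3 is chr1:83038399-83038698 and Slc19a2 is chr1:164248796-164249095. Capitals mark matches, on either strand, to any of 4 motifs. The GC box was searched as GGGCGG, and the motif of TCF and LEF factors was searched as ATCAAAG. The core of sites bound by ETS factors was searched as CCGGAA, and the box near many start sites that binds the TATA protein was searched as TATAAA.
Slc19a3: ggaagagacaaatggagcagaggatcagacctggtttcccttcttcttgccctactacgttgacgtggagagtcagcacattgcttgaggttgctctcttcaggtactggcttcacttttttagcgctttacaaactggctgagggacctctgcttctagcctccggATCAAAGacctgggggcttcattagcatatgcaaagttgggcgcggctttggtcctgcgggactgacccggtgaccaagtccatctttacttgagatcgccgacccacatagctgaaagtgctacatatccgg
Slc19a2: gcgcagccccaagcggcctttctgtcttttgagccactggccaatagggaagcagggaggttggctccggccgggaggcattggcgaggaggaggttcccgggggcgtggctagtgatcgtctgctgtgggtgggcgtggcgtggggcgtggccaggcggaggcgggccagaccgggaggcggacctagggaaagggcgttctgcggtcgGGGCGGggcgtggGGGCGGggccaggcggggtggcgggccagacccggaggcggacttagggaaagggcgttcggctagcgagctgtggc
The Slc19a3 window held 1 match to ATCAAAG, a string found in 3.73% of 32851 promoter windows of this length, and none to the other motifs. The Slc19a2 window held 2 matches to GGGCGG, found in 35.7% of windows, and none to the others; CCGGAA was in 14.9% of windows and TATAAA in 13.6%. G and C made up 52.0% of the Slc19a3 window and 72.0% of that of Slc19a2, beside a median of 52.7% over all windows. The motifs do not overlap in sequence, and a match is a description of letters only. Windows were available for 6 of the 8 carriers, but not for Slc52a3 and Slc52a2, which were both higher in JL IPs than inputs. Among the windows of Slc19a1, Slc46a1, Slc5a6 and Slc23a2 none held ATCAAAG, and of these genes only Slc5a6 was higher in JL IPs.

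Folate carriers were low in the JL IPs. Slc19a1, the reduced folate carrier (chromosome 10, 77032241 to 77061002, plus strand), stood at 4.36, 1.71 and 2.38 CPM in the JL IPs, at 6.44, 5.64 and 5.75 CPM in the ES IPs, and at 5.60, 5.78 and 7.19 CPM in the inputs. ES IP and input libraries overlapped, and the JL IPs lay below both. Slc19a1 was lower in JL IPs than inputs (-1.14 ± 0.35, adjusted p = 0.0172), a call that ended without input replicate 3 (adjusted p = 0.0722; range over alternatives 0.00105 to 0.0722). Without JL IP replicate 1 the log2 fold change was -1.59. It was higher in ES than in JL IPs (1.09 ± 0.38, adjusted p = 0.0282). That call ended without ES replicate 1, 2 or 3 (adjusted p = 0.0679, 0.0634 and 0.0615) and without JL IP replicate 2 or 3 (0.0798 and 0.0692), within a range of 0.00379 to 0.0798 over its alternatives. The ES IPs against the inputs gave -0.14 ± 0.17 (adjusted p = 0.507). Slc46a1, the proton-coupled folate transporter (chromosome 11, 78465697 to 78472059, plus strand), stood at 0.710, 0.627 and 0.924 CPM in the JL IPs, at 5.01, 5.32 and 4.73 CPM in the ES IPs, and at 4.02, 3.98 and 4.38 CPM in the inputs. The JL IP values rested on 21, 22 and 28 reads and were far below both other groups. Slc46a1 was lower in JL IPs than inputs (-2.45 ± 0.32, adjusted p = 0.000126) and higher in ES than in JL IPs (2.73 ± 0.38, adjusted p = 0.000103). For ES IPs over inputs the value was 0.20 ± 0.16 (adjusted p = 0.315). Beside these, the 10 neuron markers had median log2 fold changes of -2.53, 2.61 and 0.11 in the same 3 comparisons, and the 7 choroid plexus markers -2.73 and -4.14 against input in JL and ES IPs; their part in the result was not tested.

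Slc5a6, the sodium-dependent carrier of biotin, pantothenate and lipoate (chromosome 5, 31036036 to 31048924, minus strand), had the smallest change of the 4 carriers called higher in JL IP against input. It stood at 19.6, 25.1 and 22.3 CPM in the JL IPs, at 13.3, 8.93 and 8.09 CPM in the ES IPs, and at 7.60, 7.25 and 7.21 CPM in the inputs. The 3 groups did not overlap. The log2 fold change was 1.60 ± 0.14 for JL IP over input (adjusted p = 1e-05), -1.14 ± 0.24 for ES over JL IP (adjusted p = 0.00196) and 0.38 ± 0.21 for ES IP over JL input, which was not called (adjusted p = 0.156). Exons of Atraid on the other strand cover 9.92% of its exon bases. Whether the counting used strand is unknown here. It is therefore not known whether reads in that stretch were separated, mixed between the 2 genes or left out as ambiguous. No exon of another annotated gene overlapped the exons of the other 7 carriers.

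Slc23a2, the sodium-coupled ascorbate carrier (chromosome 2, 132052496 to 132145108, minus strand), had the smallest change of the 8 carriers in JL IP against input and in ES against JL IP, though not in ES IP against JL input. It stood at 89.0, 99.0 and 130.5 CPM in the JL IPs, at 98.1, 140.3 and 149.6 CPM in the ES IPs, and at 158, 164 and 164 CPM in the inputs. The inputs lay above every IP library, while ES and JL IPs overlapped. Slc23a2 was lower in JL IPs than inputs (-0.62 ± 0.13, adjusted p = 0.00248). ES against JL IP gave 0.28 ± 0.21 (adjusted p = 0.267) and was called higher without ES replicate 1 (adjusted p = 0.0393; range 0.0393 to 0.589). Set against the inputs, the ES IPs gave -0.41 ± 0.16 (adjusted p = 0.0579). Of 15 alternatives 7 called this last difference, among them RLE factors (adjusted p = 0.0494), upper quartile factors (0.0223), library size alone (0.0223), DESeq2 (0.0414) and limma-voom (0.0496), within a range of 0.0147 to 0.151. The epithelial ascorbate carrier Slc23a1 was at 0.0546 ± 0.0713 CPM in the JL IPs, 0.0935 ± 0.0588 in the ES IPs and 0.270 ± 0.190 in the inputs, near the 0.0577 to 0.101 CPM that 3 reads are worth in these libraries.

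**Figure D2:**
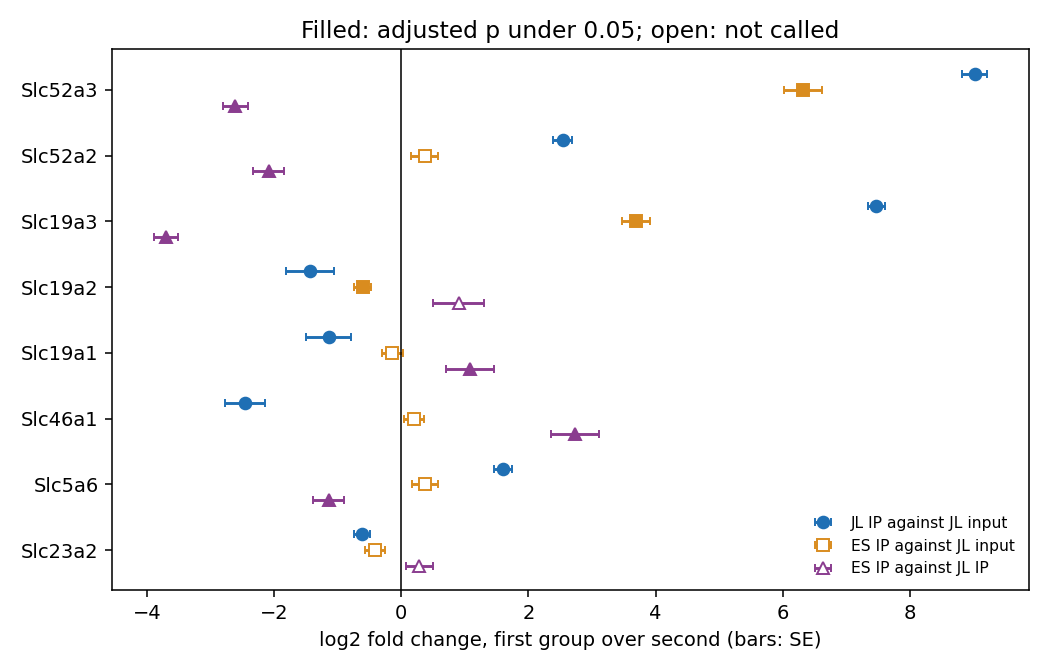
Log2 fold change of each carrier in the 3 comparisons, first group over second, with the standard error as a bar; filled symbols passed an adjusted p of 0.05 in edgeR and open symbols did not. Slc52a3 and Slc19a3 stand apart at 9.02 and 7.47 for JL IP against input, and 5 of the 8 symbols for ES IP against JL input are open.

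JL IP and input libraries of the same replicate number were also compared pair by pair, since the deposited names give both the same sequencing lane. The sign of the difference was the same in all 3 pairs for each of the 8 carriers. This was fixed in advance, because no carrier's JL IP and input libraries overlapped. The log2 ratio was 9.83, 9.02 and 8.42 for Slc52a3 and 7.34, 7.52 and 7.65 for Slc19a3. It was more variable for Slc19a2, at -1.63, -2.46 and -0.72, and for Slc19a1, at -0.36, -1.76 and -1.60.

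ES IP was set against JL IP to compare the fraction between investigators. Of the carriers 4 were lower in the ES IPs, namely Slc52a3, Slc52a2, Slc19a3 and Slc5a6, and 2 were higher, namely Slc19a1 and Slc46a1, while Slc19a2 and Slc23a2 were not called. Of 16212 tested genes 28.2% were called lower and 29.7% higher, 57.9% in all. Libraries did not overlap for 7 of 8 carriers, beside 65.8% of all genes (33.7% higher and 32.1% lower), and the count of higher carriers fell from 2 to 1 without ES replicate 2, ES replicate 3 or JL IP replicate 2 and was 3 with DESeq2, limma-voom or a replicate block. The deposited names put the ES libraries in 1 lane apart from the JL lanes, and the effects of lane and of investigator cannot be told apart. Endothelial markers moved with these results, 15 of 15 being lower in ES IPs, and so did neuron markers, 10 of 10 being higher; their part was not tested.

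ES IP against JL input called 2 carriers higher, Slc52a3 and Slc19a3, and 1 lower, Slc19a2, and left 5 uncalled. Over 17477 tested genes 26.9% were called higher and 25.3% lower (52.2% in all), a split of 4704 to 4422 that became 3705 to 5395 with upper quartile factors. Libraries did not overlap for 6 of 8 carriers, beside 64.6% of all genes (35.5% higher and 29.1% lower). In this comparison 15 of 15 endothelial markers were higher, while 3 of 10 neuron markers were higher and 3 lower. The 3 comparisons share libraries, so they are not independent, and fraction and investigator cannot be told apart here.

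Ordered per kb of exon, the carriers ranked differently in each group. In the JL IPs Slc52a3 led at 50.7 ± 5.52 CPM per kb, followed by Slc19a3 at 28.0 ± 1.46, Slc23a2 at 13.4 ± 2.72, Slc5a6 at 5.59 ± 0.682 and Slc52a2 at 4.13 ± 0.545. Slc19a2 at 1.04 ± 0.607 and Slc19a1 at 0.606 ± 0.297 overlapped, and Slc46a1 was last at 0.245 ± 0.0498. In the inputs Slc23a2 led at 20.4 ± 0.420 CPM per kb and Slc19a2 followed at 2.78 ± 0.0531, then Slc5a6 at 1.84 ± 0.0535. Slc46a1 at 1.34 ± 0.0722 and Slc19a1 at 1.33 ± 0.188 overlapped, Slc52a2 stood at 0.709 ± 0.0276, and the last places went to Slc19a3 at 0.156 ± 0.0251 and Slc52a3 at 0.0976 ± 0.0382, which overlapped. The ES IPs had Slc23a2 first at 16.3 ± 3.45 CPM per kb and Slc52a3 second at 8.25 ± 1.65; the other 6 lay between 0.969 and 2.53. With the longest transcript or the coding sequence as the length, the first 3 places in the JL IPs and the first 2 in the inputs and ES IPs were the same, while places among the lower carriers moved.

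**Figure D3:**
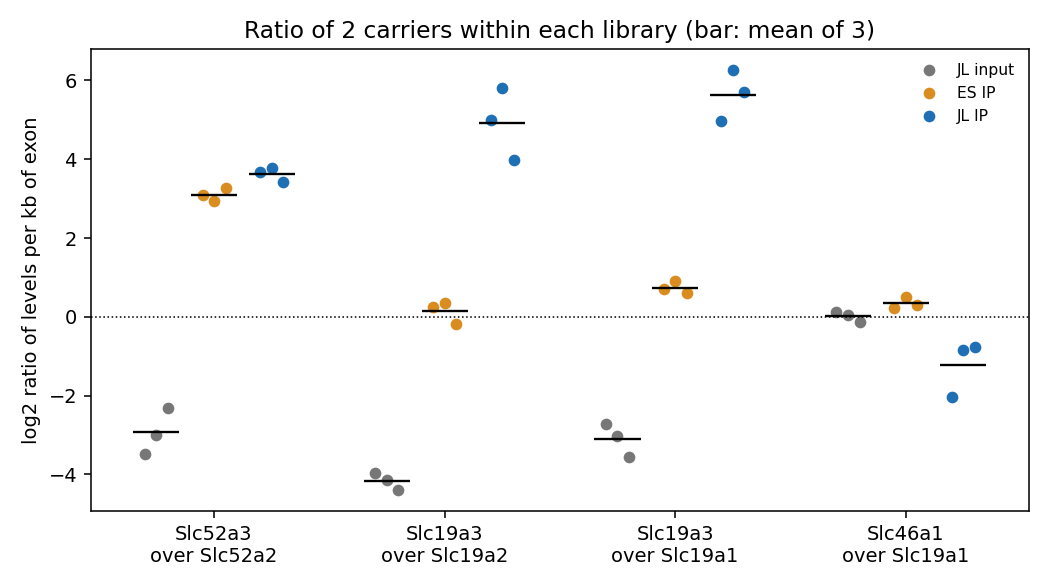
Log2 ratio of the levels per kb of exon of 2 carriers within each library; each point is 1 library, the bar is the mean of 3 and the dotted line marks equal levels. The inputs lie below the dotted line for the first 3 ratios, at means of -2.94, -4.17 and -3.10, and the JL IPs above it at 3.62, 4.93 and 5.64.

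Ratios within the Slc19 family and between folate carriers varied as well. The log2 ratio of Slc19a3 over Slc19a2 averaged 4.93 ± 0.93 in the JL IPs, 0.15 ± 0.29 in the ES IPs and -4.17 ± 0.22 in the inputs. In ES IPs these thiamine carriers were thus near equal, and the sign of the mean turned to -0.15 per kb of coding sequence. Slc19a3 over Slc19a1 averaged 5.64 ± 0.64, 0.74 ± 0.15 and -3.10 ± 0.42, and Slc46a1 over Slc19a1 averaged -1.22 ± 0.70, 0.35 ± 0.14 and 0.02 ± 0.12. Per kb of coding sequence the folate ratio became -1.65, -0.09 and -0.42, so its sign in ES IPs and inputs depends on the length used. For each ratio no 2 groups overlapped, and each difference again had the smallest exact permutation p, 0.1.

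Other genes of vitamin transport and use, 66 in a list arranged by vitamin, give the setting of the carriers. This list was chosen with earlier results of these data known, so its shares are a description only. In JL IP against input 60 were tested, of which 29 were higher, 15 lower and 16 not called, with a median log2 fold change of 0.38 beside -0.09 over all genes, of which 36.7% were called higher and 37.4% lower. In ES against JL IP 11 of 56 were higher and 23 lower, beside 29.7% and 28.2% of all genes, with a median of -0.40 beside 0.03. ES IP against JL input had 22 of 59 higher and 10 lower, beside 26.9% and 25.3% of all genes, with a median of 0.22 beside 0.00.

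**Figure D4:**
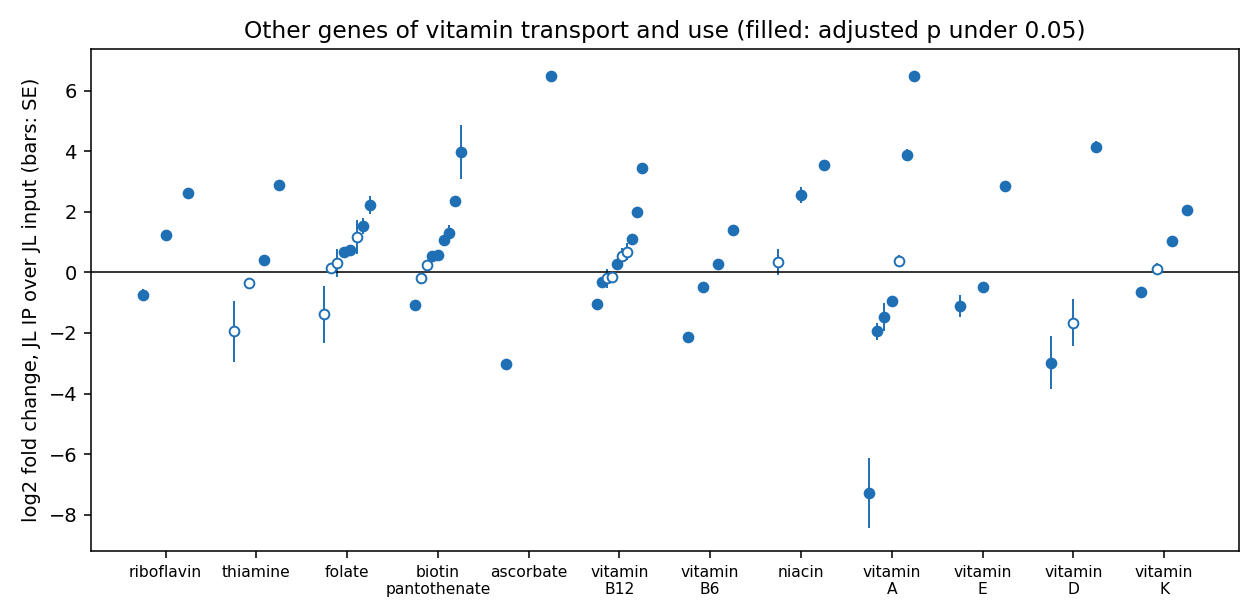
Log2 fold change of JL IP over JL input for the 60 tested genes of the list, by vitamin; bars are standard errors, filled points passed an adjusted p of 0.05 in edgeR. Slc2a1 of the ascorbate group and Stra6 of the vitamin A group are the highest points, at 6.49 and 6.48.

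The counts by vitamin that follow are for JL IP against input and are small, beside the 36.7% of all genes called higher and 37.4% lower there. For riboflavin 2 of 3 other genes were higher and 1 was lower. Riboflavin kinase, Rfk, which makes flavin mononucleotide, averaged 623.5 CPM over the JL IPs against 101.2 over the inputs (log2 fold change 2.62 ± 0.08, adjusted p = 1.5e-08). Flad1, which makes flavin adenine dinucleotide from it, was lower (-0.75), and the mitochondrial carrier Slc25a32 was higher (1.23). Rfk was lower in ES than in JL IPs (-1.67 ± 0.23, adjusted p = 0.00011) and higher in ES IPs than in JL inputs (0.87 ± 0.22, adjusted p = 0.0109).

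For folate, 4 of 8 genes were higher in JL IPs than inputs, 4 were not called and 0 were lower, beside 36.7% of all genes higher. Folylpolyglutamate synthase, Fpgs, which retains folate in cells, stood at 5.29 against 1.12 CPM (2.23 ± 0.30, adjusted p = 0.000152). Folr1, a folate receptor of choroid plexus, stood at 0.614 ± 0.533 CPM in the JL IPs, 0.0942 ± 0.0714 in the ES IPs and 1.62 ± 0.0706 in the inputs; it was not called in JL IPs and was lower in ES IPs than inputs (-4.14 ± 0.50, adjusted p = 0.000321). Folr1 is itself in the choroid plexus marker list, whose median of -4.14 in ES IPs against inputs is the Folr1 value. Ttr, the leading choroid plexus marker, stood at 47.2 ± 8.11, 1.15 ± 0.441 and 644 ± 50.8 CPM. The part of choroid plexus RNA in the folate results was not tested.

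For biotin and pantothenate 6 of 9 genes were higher in JL IPs than inputs and 1 was lower, beside 36.7% and 37.4% of all genes. Biotinidase, Btd, which recycles biotin, stood at 17.8 against 3.46 CPM (2.36 ± 0.17, adjusted p = 3.25e-06). Among ascorbate genes, the glucose transporter Slc2a1, which also carries the oxidised form of the vitamin, stood at 2932 ± 329 CPM in the JL IPs, 460.6 ± 146 in the ES IPs and 32.5 ± 0.356 in the inputs (JL IP over input 6.49 ± 0.11, adjusted p = 1.84e-09). The neuronal glucose transporter Slc2a3 went the other way, at 20.9 ± 4.65, 114.6 ± 15.4 and 171 ± 2.64 CPM (-3.04).

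Genes for other vitamins included several large changes, while the counts called went both ways. In JL IP against input, 2 of 7 tested vitamin A genes were higher and 4 lower. Vitamin E had 1 of 3 higher and 2 lower, vitamin D 1 of 3 and 1, and vitamin K 2 of 4 and 1. Vitamin B6 had 2 of 4 higher and 2 lower, and niacin 2 of 3 and 0. Beside these, 36.7% of all genes were higher and 37.4% lower. Stra6, the cell surface receptor that takes up retinol from its carrier protein, stood at 309 ± 38.0 CPM in the JL IPs, 54.1 ± 7.40 in the ES IPs and 3.44 ± 0.202 in the inputs (JL IP over input 6.48 ± 0.13, adjusted p = 2.36e-09). Rbp4, that carrier protein, was at 1.92 ± 0.513, 11.3 ± 1.84 and 7.36 ± 1.37 CPM. It was lower in JL IPs than inputs (-1.94 ± 0.28, adjusted p = 0.000287, edgeR) and higher in ES than in JL IPs (2.55 ± 0.31, adjusted p = 3.74e-05). Of 10 vitamin B12 genes 4 were higher in JL IPs than inputs and 2 lower, a share of higher genes near the 36.7% of all genes. The largest change among them was that of the plasma carrier Tcn2 (3.44 ± 0.12); its receptor Cd320 was also higher (1.99). Nampt, which makes the nicotinamide mononucleotide of NAD synthesis, was higher (3.56 ± 0.14), as were Scarb1, a lipoprotein receptor that takes up vitamin E (2.85 ± 0.10), Cubn, an endocytic receptor (4.16 ± 0.20), and Vkorc1, the vitamin K epoxide reductase (2.05 ± 0.11). Pdxp, a pyridoxal phosphate phosphatase, was lower (-2.14 ± 0.16). In ES against JL IP these 7 genes (Tcn2, Cd320, Nampt, Scarb1, Cubn, Vkorc1 and Pdxp) were called the other way, from -2.58 for Tcn2 to 2.42 for Pdxp. Over all genes tested there, 29.7% were called higher and 28.2% lower. The naming rule drew on calls in both comparisons, and Cd320 was added after its values were seen. Both comparisons also share the JL IPs, so the opposite directions are no separate result. Against JL input, the ES IPs were higher for Coasy (0.64 ± 0.18, adjusted p = 0.018) of coenzyme A synthesis, Mmadhc (0.88 ± 0.16), Pdxk (0.97 ± 0.15), the pyridoxal kinase, and Naprt (1.59 ± 0.31), and lower for Ttpa (-1.19 ± 0.23), the tocopherol transfer protein, and Ggcx (-1.26 ± 0.21), the vitamin K dependent carboxylase.

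Genes whose levels ran most like each carrier were found by the root mean square difference in log2 CPM over the 9 libraries, each gene centred on its own mean, among 13056 genes. These libraries share their fraction and investigator in groups of 3, so likeness reflects the group means and is given as a description. Nearest to Slc52a3 were the forkhead factor Foxq1 (0.20), the amino acid transporter Slc38a5 (0.31) and the T-box factor Tbx1 (0.33). Tbx1 had only 4 reads over the 3 inputs together (mean 0.0266 CPM), so its likeness there rests on few counts. Nearest to Slc19a3 were the monocarboxylate transporter family member Slc16a4 (0.16), the cytokine receptor chain Il2rg (0.24) and the endothelial phosphatase Ptprb (0.27). Slc52a2 ran closest to the amino acid transporter heavy chain Slc3a2 (0.12), Nr1h2 (0.13) and Jag2 (0.13), and Slc5a6 to Cd24a (0.11), Nol7 (0.12) and Alkbh3 (0.12). The genes nearest to Slc46a1 were Hap1 (0.10), Syt11 (0.12) and Scamp5 (0.12). Those nearest to Slc19a1 were Ankrd13b (0.19), Nhlrc1 (0.19) and Letmd1 (0.21), to Slc19a2 Ccdc74a (0.12), Cdhr3 (0.17) and Nipa1 (0.20), and to Slc23a2 Plagl1 (0.10), Tubgcp5 (0.12) and Sox9 (0.12).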

How the data were processed

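The members, lists and markers were chosen with earlier results of these data known. Per the submitters' processing notes, the authors aligned reads with STAR 2.0.0e to mm10 and counted them with HTSeq; no source used here names the annotation, the strand setting or filters. What the authors deposited is a table of unnormalised gene counts for each library. HTSeq's 5 special rows and 1 row named unknown were left out (reads without a feature were 17.3 to 24.4%, ambiguous reads 2.04 to 11.3% of gene, no-feature and ambiguous reads together, the unknown row at most 3 counts). Ambiguous reads differed by fraction, at 2.04 to 2.13% in the JL IPs, 2.44 to 2.54% in the ES IPs and 10.3 to 11.3% in the inputs. The part of this difference in the results was not tested.

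Each comparison was fitted on the whole gene table in R 4.3.3 by edgeR 4.0.16 (TMM after filterByExpr, estimateDisp, glmQLFit, glmQLFTest; Benjamini-Hochberg over all genes, threshold 0.05), using the 2 groups compared; SE is the log2 fold change over the square root of F. Standard alternatives used limma 3.58.1 and DESeq2 1.42.0. The fits were tested on simulated data, in which 100 genes changed 2-fold and 100 changed 4-fold in random directions. All of these had a mean of 1 CPM or more. Of true 2-fold changes, 64% were recovered for JL IP against input, 42% for ES against JL IP and 72% for ES IP against JL input. For true 4-fold changes the shares were 89%, 91% and 99%, and false calls were 11, 14 and 12. Far more genes were called in the real comparisons, so these shares need not hold there. Levels rest on 31987470 to 46598478 gene counts a library, and 3 counts are worth 0.0577 to 0.101 CPM. The ribosomal RNA row Rn45s held 15.7 to 17.9% of gene counts in JL IPs, 6.04 to 12.0% in ES IPs and 4.83 to 5.29% in inputs. Without it, 4 carriers were still called higher and 4 lower in JL IP against input. Alignments that were not unique, left out of the counts, came to 1.80 to 2.05, 0.953 to 1.43 and 0.610 to 0.635 per gene count in the same order. Chi-square per degree of freedom between replicates was 7.00 to 217, so no 2 libraries were repeat counts. Named genes were all carriers, Abcb1a, Rpl10a, first and second markers, per vitamin and comparison the called gene with the largest change at 1 CPM or more in the higher group, and the 3 nearest genes per carrier; Flad1, Slc25a32, Slc23a1, Slc2a3 and Cd320 were added for their roles after their values were seen. Gene positions and lengths come from GENCODE M21, promoter windows from RefSeq. Some genes that the rule names are not reported here.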

Additional observations from a re-analysis of the deposited data

How the results depend on the processing

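Of 360 refits of a carrier's log2 fold change, 340 kept direction and side of the threshold, 7 lost and 13 gained a call, and 0 changed direction. For JL IP against JL input 4 carriers were called higher in all 15 alternatives. The number called higher in ES against JL IP, 2 in all, ran from 1 to 2 when 1 library was left out and was 3 with DESeq2, limma-voom or a replicate block. The number called lower in ES IP against JL input, 1 in all, was 2 with RLE factors, upper quartile factors, library size alone, DESeq2 or limma-voom, 0 with all 9 libraries in 1 fit, and 1 to 2 when 1 library was left out; the cause was not tested. With library size alone the median log2 fold change of all genes moved from -0.09 to -0.35 for JL IP against input. All 96 recomputed differences in carrier ratios kept their sign, which was fixed in advance and says nothing of stability. Gene length cancels between groups, and no 2 groups overlapped for any ratio.

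Same-numbered JL IP and input libraries deviated together with correlations of 0.19, 0.09 and 0.11 over 14514 genes, each higher than with other numbers, and ES and JL IPs with 0.06, -0.02 and 0.04; the titles do not state a pairing. A replicate block called 6124 genes higher and 6307 lower for JL IP against input (6372 and 6487 without it), 4771 and 4532 for ES against JL IP (4809 and 4572) and 4439 and 4212 for ES IP against JL input (4704 and 4422), and among carriers it changed 1 call, Slc19a2 in ES against JL IP (log2 fold change 1.06, adjusted p = 0.0246). Depth limited Slc52a3 and Slc19a3 in inputs and Slc46a1 in JL IPs, each at 29 reads or fewer a library.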
